A study of Rattus norvegicus with 24 samples.

Results

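Lungs of rats exposed to whole-cigarette smoke condensate (WCSC) at 5 mg/mL for 6 days were compared with control lungs of the same day. The members were the 3 libraries labelled 5 mg/mL and 6 days, set against the 3 labelled control and 6 days, so that 6 of the 24 libraries of the series entered the comparison. All genes were considered: 16881 distinct gene symbols were counted, and 11421 of them had enough reads to be tested. All animals carry the genotype label WT. The sources used here give no strain, sex, age, route of exposure or make-up of the control treatment, and 5 mg/mL is the labelled strength of the condensate rather than a dose per animal. The remaining 18 libraries hold lungs exposed to 10 or 20 mg/mL for 6 days, to 5, 10 or 20 mg/mL for 12 days, and controls at 12 days, with 3 libraries a group.

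Cigarette smoke condensate is the particulate fraction of the smoke, taken up in a liquid. Its polycyclic aromatic hydrocarbons activate the aryl hydrocarbon receptor, which induces the detoxifying enzyme gene Cyp1a1, and its electrophiles activate the transcription factor NRF2, which induces antioxidant genes such as Nqo1 and Hmox1. Smoke is also known to draw macrophages and neutrophils into the airspaces through cytokines and chemokines. Gene lists for these programs, for energy metabolism and protein synthesis, and for the cell types of the lung and its surroundings were examined beside all genes.

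Libraries were made from total RNA of lung tissue with a kit that reads a single fragment near the 3′ end of each polyadenylated transcript, so levels are given as CPM (a gene's share of the counted reads, in parts per 1000000), scaled between libraries, without division by transcript length. The 5 mg/mL libraries held 10989792, 9530244 and 5173550 counted reads, against 8595572, 6867473 and 6663749 reads in control libraries. At an equal depth of 4758014 reads, 11590, 11454 and 12412 genes were detected at 5 mg/mL, against 11545, 12409 and 12180 in controls. Replicates 1 and 2 of 5 mg/mL and replicate 1 of the controls were thus low, and they belong to the 8 libraries with the fewest detected genes among all 24. In log2 CPM, 5 mg/mL replicate 3 correlated more closely with control replicates 2 and 3 (Pearson r over genes 0.972 and 0.967) than with its own group (0.93 and 0.925), so the closest neighbours among the 6 libraries did not follow the exposure. Results that follow this split are given with and without those libraries, which leaves 1 library of 5 mg/mL and 2 controls on the other side. The labels do not say that the replicates came from separate animals, so p-values measure the spread between these samples only, which may be technical.

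No gene differed at an adjusted p under 0.05 between 5 mg/mL and control lungs by edgeR's quasi-likelihood test with Benjamini-Hochberg adjustment (0 of 11421 genes, 0.0%), and the smallest adjusted p was 0.675. At an unadjusted p under 0.05, 538 genes (4.71%) differed, 289 of them higher (2.53%) and 249 lower (2.18%) at 5 mg/mL, where 571 would pass by the threshold alone. DESeq2 called 2 genes (0.0175%), Trat1 and Cmc1, each at an adjusted p of 0.0452, with 641 genes at an unadjusted p under 0.05. limma voom with sample quality weights called 0, with 2250 genes at an unadjusted p under 0.05. Those weights were 0.679, 0.692 and 0.448 for 5 mg/mL replicates 1 to 3, and 0.372, 2.63 and 1.7 for control replicates 1 to 3. The count was 810 by voom without weights, which was added after seeing the data. In 951 genes (8.33%) the 3 values at 5 mg/mL did not overlap the 3 control values, with 479 higher (4.19%) and 472 lower (4.13%). The median log2 fold change over all genes was -0.01, with 5613 genes (49.1%) higher and 5804 (50.8%) lower.

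How much the data could have shown is given by the intervals of the differences. The 95% interval of the log2 fold change lay between -1 and 1 for 5772 genes (50.5%), and the median SE was 0.332. For the remaining genes the interval reached beyond a 2-fold difference in at least 1 direction. Leaving out single libraries moved the count at an unadjusted p under 0.05 by more than 1.5 times each time. It was 329, 283 and 1943 without 5 mg/mL replicates 1, 2 and 3, and 1112, 321 and 311 without control replicates 1, 2 and 3. Without 5 mg/mL replicate 3, 2 genes passed the adjusted threshold, Tanc2 and Tcf20, both lower at 5 mg/mL. Tcf20, a transcription factor gene, lies outside the rule for named genes and was chosen after its values were seen.

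The genes of smallest p with a higher mean at 5 mg/mL are described next, as values chosen by this same contrast, with no test read from them. Trat1 encodes an adaptor protein of the T cell receptor complex. It had 2.75, 4.57 and 0.534 CPM at 5 mg/mL and 0 reads in each control library, 66 reads against 0 in all. The pooled exposed level of 2.81 CPM was 21.0-fold above a floor of 3 reads over the control group, 0.134 CPM. That ratio allows for counting in the control group only, not for the spread between libraries. All 3 exposed lungs had Trat1 reads, with replicate 3 far below the other two.

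Cmc1 encodes an assembly factor of cytochrome c oxidase, the last complex of the mitochondrial respiratory chain. Its level was 18.1, 42.3 and 22.2 CPM at 5 mg/mL, against 8.29, 6.50 and 11.5 CPM in controls, with means of 27.5 ± 13.0 against 8.78 ± 2.55 CPM (SD, n = 3 each). The log2 fold change was 1.65 with an SE of 0.35. Every exposed lung lay above every control, and replicate 2 stood highest. In both Trat1 and Cmc1 the 3 control lungs of day 6 lay below all 21 other libraries, including the control lungs of day 12, which had 13.5, 16.4 and 15.1 CPM of Cmc1 and 0.404, 2.17 and 1.25 CPM of Trat1. Ninj1 was the other gene of this kind among the 30 described, and over all tested genes there were 5 (0.0438%). Ninj1 encodes a membrane protein whose clustering ruptures the plasma membrane of dying cells. It had 46.0, 34.3 and 33.3 CPM at 5 mg/mL and 23.5, 21.1 and 22.7 CPM in controls, against 38.4, 28.7 and 29.8 CPM in control lungs of day 12. No gene among the 30 had the exposed lungs outside all 21 other libraries. Over all tested genes the exposed lungs lay above the 21 others in 7 (0.0613%) and below them in 6 (0.0525%). Control lungs of day 6 lay above the 21 others in 3 genes (0.0263%).

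Ost4, a small subunit of the complex that attaches N-linked sugar chains to new proteins, had 156, 183 and 98.8 CPM at 5 mg/mL, against 56.8, 52.0 and 54.0 CPM in controls, a log2 fold change of 1.43 (SE 0.36). Eci2, an isomerase of fatty acid oxidation, had 72.0, 55.6 and 43.9 CPM against 22.2, 22.9 and 25.1 CPM. In both genes the controls of day 6 lay close together while the exposed lungs were spread out above them. Control lungs of day 12 were spread out as well, with 27.9, 67.5 and 85.4 CPM of Ost4 and 15.8, 38.5 and 53.8 CPM of Eci2. Sqrdl, the mitochondrial enzyme that oxidises hydrogen sulfide, had 44.6, 49.2 and 47.7 CPM at 5 mg/mL, against 20.7, 14.2 and 22.8 CPM in controls. Akr1c19, an aldo-keto reductase gene, had 6.48, 7.96 and 10.5 CPM at 5 mg/mL, against 1.28, 2.98 and 3.38 CPM in controls. For Sqrdl and Akr1c19 the exposed values were of a like height in all 3 libraries, replicate 3 included. Control lungs of day 12 reached that height, with 13.1, 37.2 and 45.7 CPM of Sqrdl and 9.9, 6.86 and 9.99 CPM of Akr1c19.

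Procr encodes the endothelial receptor for protein C, which restrains clotting. It had 16.1, 18.1 and 12.1 CPM at 5 mg/mL, against 3.70, 6.10 and 5.21 CPM in controls, a log2 fold change of 1.63 (SE 0.43). Cdkn2c, an inhibitor of the cyclin-dependent kinases that start the cell cycle, had 26.2, 31.2 and 23.1 CPM against 17.9, 12.5 and 13.5 CPM. In both genes every exposed lung exceeded every control of day 6. Control lungs of day 12 had 5.46, 12.3 and 18.6 CPM of Procr and 21.6, 19.3 and 19.3 CPM of Cdkn2c. Itgb1bp1 encodes a protein that binds the tail of an integrin, and Snapc5 a subunit of a complex needed for transcription of small nuclear RNAs. The remaining higher genes were Itgb1bp1, Snapc5, Ten1 of the telomere-capping complex, the DNA repair gene Parp3, Ttc5 and Aarsd1. Their log2 fold changes lay between 0.76 and 1.73. The groups did not overlap in 14 of the 15 higher genes. The exception was Snapc5, with 11.9, 12.9 and 2.85 CPM at 5 mg/mL against 2.68, 2.17 and 3.52 CPM in controls, where only exposed replicates 1 and 2 were high and where the log2 fold change was -0.0002 without the libraries of few detected genes. Ost4 overlaps Agbl5 in the current rat annotation, and Parp3 overlaps Rrp9. The strand setting of the counting is not given in the sources used here, so reads of such pairs cannot be told apart.

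**Figure D1:**
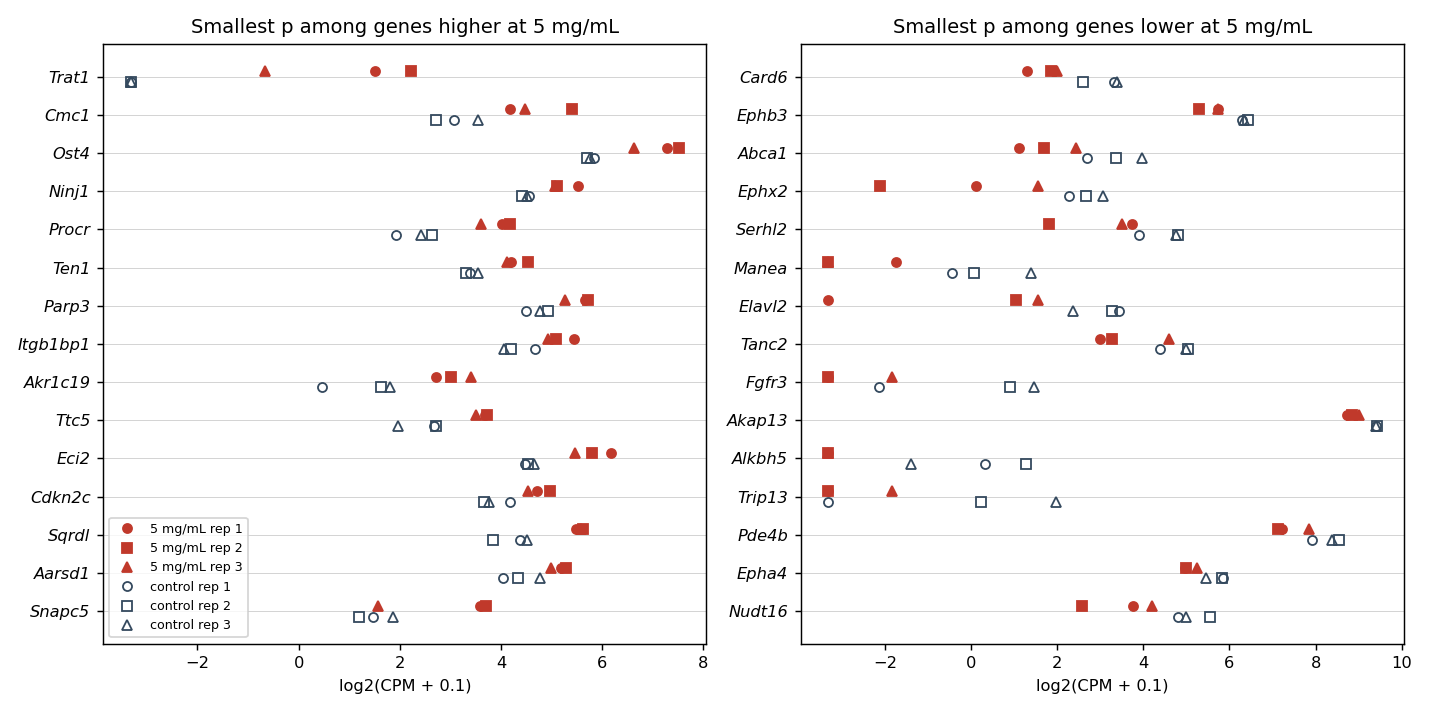
Log2(CPM + 0.1) in each library for the 15 genes of smallest p with a higher mean (left) and the 15 with a lower mean (right) at 5 mg/mL and 6 days. Filled symbols are 5 mg/mL and open symbols control lungs, with 1 symbol shape per replicate number. The groups are apart in 14 genes on the left and 12 on the right, as the choice of genes by this contrast favours, and Trat1 sits at 0 reads in every control.

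Among the genes with a lower mean at 5 mg/mL, Ephx2 encodes soluble epoxide hydrolase, which inactivates lipid epoxides. It had 0.981, 0.131 and 2.85 CPM at 5 mg/mL, against 4.72, 6.23 and 8.30 CPM in controls, a log2 fold change of -2.34 (SE 0.69). Abca1, the transporter that exports cholesterol from macrophages and other cells, had 2.06, 3.13 and 5.34 CPM at 5 mg/mL, against 6.38, 10.2 and 15.6 CPM in controls, a log2 fold change of -1.63 (SE 0.46). Every exposed lung lay below every control in both genes, and both were of low abundance. Card6, which encodes a protein with a caspase recruitment domain, had 2.36, 3.52 and 3.91 CPM against 9.95, 5.96 and 10.3 CPM. Elavl2, an RNA-binding protein gene known from neurons, had 0, 1.96 and 2.85 CPM at 5 mg/mL, against 10.7, 9.49 and 5.07 CPM in controls.

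Ephb3 and Epha4 encode Eph receptors, cell-surface tyrosine kinases that read ephrins on neighbouring cells. Ephb3 had 53.1, 38.9 and 53.2 CPM at 5 mg/mL, against 78.6, 85.9 and 81.3 CPM in controls. Epha4 had 31.3, 31.9 and 37.7 CPM at 5 mg/mL, against 57.5, 57.1 and 43.6 CPM in controls. Their log2 fold changes were -0.76 (SE 0.21) and -0.65 (SE 0.21), and neither group of values overlapped the other. Akap13 and Pde4b act in cyclic AMP signalling, the first as an anchor of protein kinase A, the second as a phosphodiesterase. Akap13 had 427, 457 and 511 CPM at 5 mg/mL, against 681, 684 and 679 CPM in controls, where the controls were almost equal. Those of day 12 were not, with 745, 549 and 626 CPM. Pde4b had 148, 140 and 231 CPM at 5 mg/mL, against 240, 371 and 335 CPM in controls, with exposed replicate 3 just under the lowest control. The nucleotide hydrolase gene Nudt16 had 13.4, 5.87 and 18.3 CPM against 27.9, 46.5 and 31.8 CPM.

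Few reads lie behind 4 of the lower genes. Alkbh5, the eraser of N6-methyladenosine in RNA, had 0 reads in all 3 exposed lungs and 28 in controls. A floor of 3 reads over the exposed group, 0.128 CPM, lay 9.79-fold below the pooled control level of 1.25 CPM. Manea, an endomannosidase gene, had 2 reads at 5 mg/mL and 30 in controls, a ratio of 0.0635 with a 95% counting interval of 0.00736 to 0.25. Fgfr3, a fibroblast growth factor receptor gene, had 1 read against 33, a ratio of 0.0289 (0.00071 to 0.172), and Trip13, a gene of the spindle checkpoint, had 1 read against 35, a ratio of 0.0272 (0.00067 to 0.162). These intervals and the floor for Alkbh5 cover counting error only. In Fgfr3 and Trip13 the groups overlapped, because control replicate 1 was as low as the exposed lungs, and in Tanc2, a scaffold protein gene, exposed replicate 3 reached the control range. The groups did not overlap in the other 12 of the 15 lower genes. Serhl2 overlaps Rrp7a, and Trip13 overlaps Brd9, with the same limit on telling their reads apart.

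Ribosomal protein genes, which build the small and large ribosomal subunits, differed more between libraries than between the groups. Of 77 cytosolic ribosomal protein genes tested, 76 had a higher mean at 5 mg/mL, with a median log2 fold change of 0.68, and 19 (24.7%, against 2.53% of all genes) had an unadjusted p under 0.05, all higher. Their summed level was 87200, 93000 and 29800 CPM at 5 mg/mL, against 67500, 33400 and 32700 CPM in controls. Exposed replicates 1 and 2 and control replicate 1 were high, and the other 3 libraries were low, the same division as in detected genes. In all 77 genes exposed replicate 3 lay below control replicate 1, so that the groups did not overlap in 0 of 77, against 4.19% of all genes higher without overlap. Within the libraries of few detected genes the median difference between 5 mg/mL and control was 0.45 log2 CPM, and within the other libraries it was -0.14, with 13 of 77 genes higher. Between control replicate 1 and control replicates 2 and 3 it was 1.02, with 77 of 77 genes higher. Rpl27, for instance, had 251, 328 and 102 CPM at 5 mg/mL, against 145, 96.5 and 110 CPM in controls. Without the 8 libraries of few detected genes, the fitted median was -0.15, and leaving out single libraries gave 0.41 without 5 mg/mL replicate 2 and 1.13 without control replicate 1 as the extremes. The direction held under every scaling tried. Many ribosomal protein genes have near-identical copies in the genome, so single values are uncertain.

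**Figure D2:**
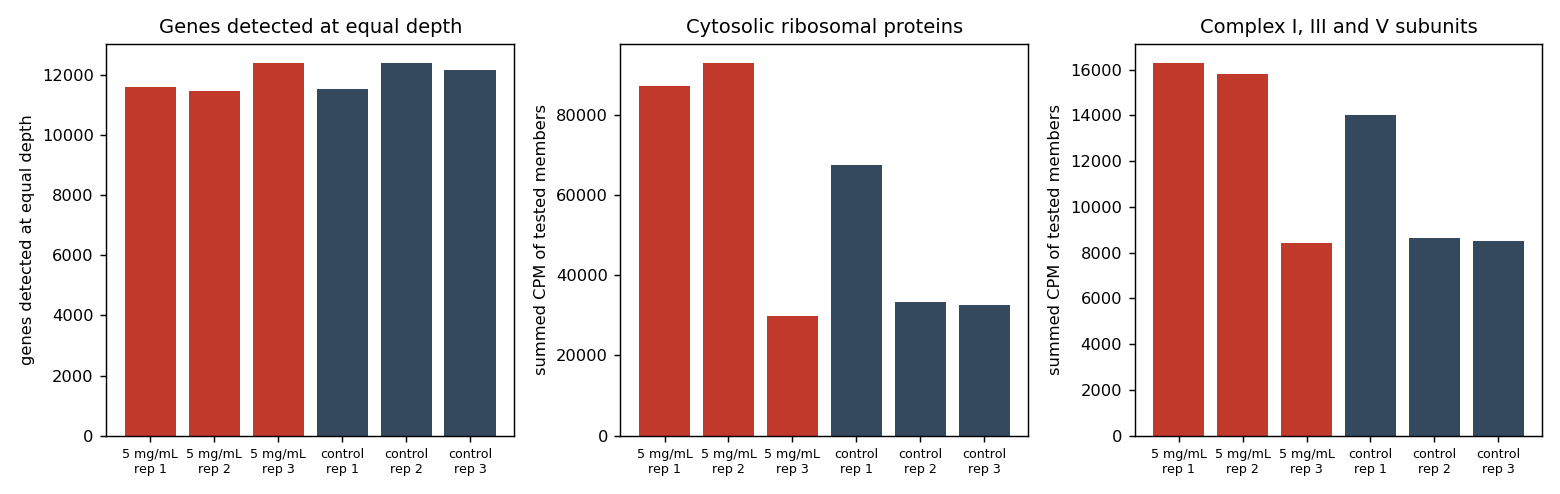
Genes detected at an equal depth of 4758014 reads (left), summed CPM of 77 cytosolic ribosomal protein genes (middle) and summed CPM of 59 subunit genes of respiratory complexes I, III and V (right), with 1 bar for each library, 5 mg/mL in red and control in blue. Exposed replicates 1 and 2 and control replicate 1 have fewer genes and higher sums, and exposed replicate 3 sits with control replicates 2 and 3 in all 3 panels.

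Genes of the respiratory chain followed the same division. Of 87 genes tested for complexes I, III, V and cytochrome c oxidase with its assembly factors, 78 had a higher mean at 5 mg/mL and 10 (11.5%, against 2.53% of all genes) had an unadjusted p under 0.05, all higher. The 59 subunit genes of complexes I, III and V summed to 16300, 15800 and 8440 CPM at 5 mg/mL, against 14000, 8640 and 8500 CPM in controls, with a median log2 fold change of 0.39. The 28 cytochrome c oxidase genes summed to 5100, 5460 and 2740 CPM, against 3900, 2790 and 2490 CPM, with a median of 0.31. Exposed replicates 1 and 2 were again the highest of the 6 libraries, but exposed replicate 3 stood near the controls. Without the libraries of few detected genes the medians were 0.02 and 0.00, and without control replicate 1 they were 0.67 and 0.45. Besides Cmc1, the cytochrome c oxidase subunit gene Cox7c had 523, 897 and 310 CPM at 5 mg/mL, against 271, 239 and 224 CPM in controls, and the assembly factor gene Coa7 had 14.4, 12.1 and 11.9 CPM, against 5.61, 8.40 and 9.15 CPM. Every exposed lung lay above every control in these genes. They belong to the 4 of 28 cytochrome c oxidase genes that were higher without overlap, against 4.19% of all genes. Another 1 of the 28 was lower without overlap, against 4.13% of all genes. Without the libraries of few detected genes, the log2 fold change of Cox7c was 0.42 instead of 1.24, that of Coa7 0.44 instead of 0.73, and that of Cmc1 1.30 instead of 1.65. Cox7c overlaps LOC252890 in the current annotation. With detected genes as a covariate, the medians of the ribosomal protein list and of both respiratory lists stayed above 0. Why these lists follow the division in detected genes was not tested.

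The classical targets of smoke did not separate the groups. Cyp1a1 had 19.9, 5.87 and 21.2 CPM at 5 mg/mL, against 13.0, 20.9 and 2.67 CPM in controls, a log2 fold change of 0.36 with a 95% interval of -1.15 to 1.86. Each group held both low and high values, and the sign turned without control replicate 3 (-0.11). The aryl hydrocarbon receptor list holds targets together with the genes of the receptor, Ahr, and of its partner, Arnt. Of 6 genes of that list tested, 2 had a higher mean at 5 mg/mL, with a median of -0.21 and 0 at an unadjusted p under 0.05. Cyp1b1 had 18 reads over 5 of the 24 libraries and was not tested. Nqo1, a quinone reductase under NRF2, had 45.0, 31.5 and 35.9 CPM at 5 mg/mL, against 32.1, 48.6 and 47.1 CPM in controls, a log2 fold change of -0.18 (-0.63 to 0.26), an interval that leaves out a 2-fold difference. Hmox1, the haem oxygenase, had 46.7, 46.5 and 40.6 CPM against 95.7, 43.6 and 59.4 CPM, with control replicate 1 apart from the rest. Of 27 NRF2 antioxidant genes, 12 had a higher mean, with a median of -0.02. The ferritin heavy chain gene Fth1 was the single member at an unadjusted p under 0.05, 1 of 27 higher against 2.53% of all genes. It had 3770, 4430 and 1910 CPM at 5 mg/mL against 2530, 956 and 1600 CPM in controls. Its level was again high in exposed replicates 1 and 2 and control replicate 1. Its log2 fold change of 0.99 was 0.58 without the libraries of few detected genes.

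Of 21 cytokine and chemokine genes, 14 had a higher mean at 5 mg/mL, with a median of 0.25, which was 0.06 without 5 mg/mL replicate 1. Ccl2, the chemokine that attracts monocytes, had 10.5, 7.31 and 7.30 CPM at 5 mg/mL, against 2.04, 1.76 and 3.10 CPM in controls, a log2 fold change of 1.86 (SE 0.82) with an adjusted p of 0.896 by edgeR. Every exposed lung lay above every control in Ccl2, which was 1 of 21 genes higher without overlap, against 4.19% of all genes. Cxcl1, a neutrophil attractant, had 8.05, 12.7 and 22.6 CPM against 4.46, 7.05 and 11.1 CPM, with overlap. Il1b had 69.3, 63.8 and 27.6 CPM against 54.7, 26.4 and 23.9 CPM, high in the same 3 libraries as the ribosomal protein genes, and its log2 fold change of 0.62 was 0.13 without the libraries of few detected genes. Tnf stayed at or under 2.68 CPM in all 6 libraries, and Il6 had no reads in them. The macrophage elastase gene Mmp12 had 2.06, 5.35 and 0.356 CPM at 5 mg/mL, against 2.42, 0.136 and 1.83 CPM in controls, mixed between the groups.

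The list of NF-kappaB feedback genes holds subunits of the factor (Rela, Nfkb1, Nfkb2), inhibitors and regulators such as Nfkbia and Tnip1, and targets such as the adhesion molecule genes Icam1 and Vcam1. Of its 12 genes tested, 10 had a lower mean at 5 mg/mL, with a median log2 fold change of -0.19 and 0 at an unadjusted p under 0.05. Their mean log2 CPM was 5.76, 5.6 and 5.65 at 5 mg/mL, against 5.96, 5.79 and 5.88 in controls, 1 of 2 lists among 35 whose library means did not overlap. The highest exposed library and the lowest control were nearly equal, and the median was -0.09 without 5 mg/mL replicate 2. The summed levels overlapped, with 3150, 1610 and 2060 CPM at 5 mg/mL against 2640, 2730 and 2890 CPM in controls. Of the 12 genes, 0 were lower without overlap, against 4.13% of all genes. Nfkbia, the inhibitor of NF-kappaB itself, had 2310, 823 and 1110 CPM at 5 mg/mL, against 1640, 1750 and 1990 CPM in controls, so that exposed lungs held both the highest and the lowest values.

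Glucocorticoid-induced genes were spread among the exposed lungs. Zbtb16, a transcription factor gene, had 0.491, 3.00 and 49.3 CPM at 5 mg/mL, against 0.893, 8.54 and 6.47 CPM in controls. Fkbp5, a co-chaperone of the glucocorticoid receptor, had 34.1, 47.0 and 97.9 CPM against 27.8, 27 and 48.1 CPM. Exposed replicate 3 was the highest library in both, and without it the log2 fold change of Zbtb16 turned to -1.65. Of the 13 genes of this list, 6 had a higher mean, with a median of -0.08. Immediate-early genes had a median of -0.03 over 19 genes, which was 0.38 without the libraries of few detected genes and -0.27 without 5 mg/mL replicate 3. Among them the nuclear receptor gene Nr4a1 had 5.69, 5.09 and 21.4 CPM at 5 mg/mL against 1.53, 4.47 and 4.93 CPM in controls. The groups did not overlap in Nr4a1, and exposed replicate 3 was highest. Of the 19 genes, 8 had a higher mean and 11 a lower mean. Without overlap, 2 were higher (against 4.19% of all genes) and 2 lower (against 4.13%).

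**Figure D3:**
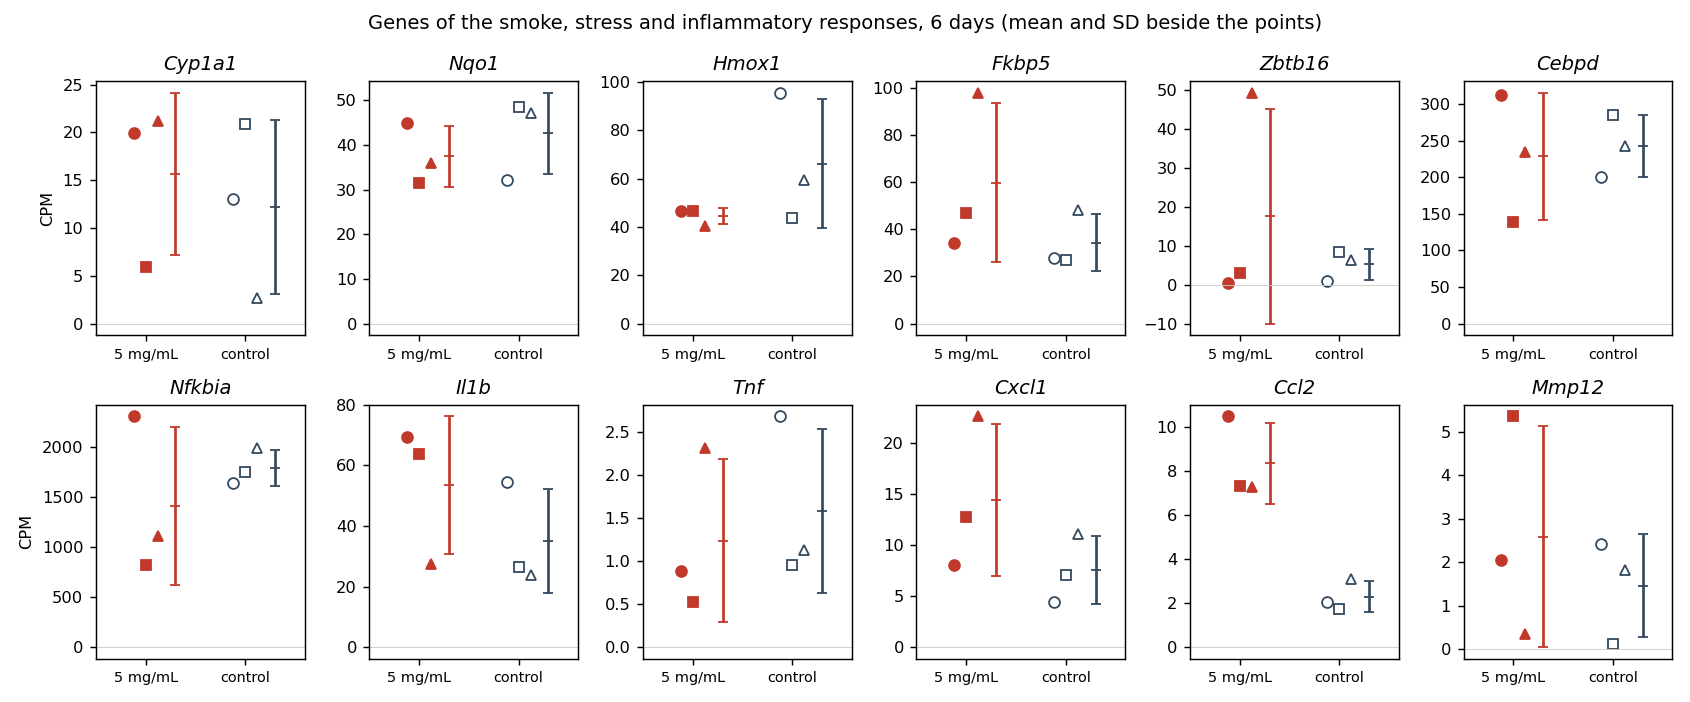
CPM of 12 genes of the smoke, stress and inflammatory responses in each library at 6 days, 5 mg/mL on the left and control on the right of each panel, with the mean and SD (n = 3 each) beside the points. Ccl2 is the single panel in which the groups do not overlap, and Zbtb16 has 1 exposed library at 49.3 CPM with the other two at or under 3.00 CPM.

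Markers of cell types are given with the limit that, in bulk tissue, fewer cells of a type and less RNA per cell cannot be told apart. The lungs had the levels of surfactant and secretory genes of lung tissue: Sftpc, of alveolar type II cells, had 12500, 11000 and 8550 CPM at 5 mg/mL, against 11100, 8920 and 8020 CPM in controls, and Scgb1a1, of club cells, had 16600, 11200 and 10900 CPM against 9060, 13000 and 17000 CPM. Both genes overlapped between the groups. Medians were near 0 for alveolar type II cells (0.11, 12 genes), alveolar type I cells (0.10, 11 genes), ciliated cells (-0.05, 12 genes), endothelial cells (0.02, 18 genes) and fibroblasts and smooth muscle (0.04, 14 genes). Of 8 club and goblet cell genes, 3 had a higher mean, with a median of -0.24, which was 0.13 without control replicate 3.

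Of 27 T cell and NK cell genes, 21 had a higher mean at 5 mg/mL, with a median of 0.29. Trat1 and Ncr1, an activating receptor gene of NK cells, were the 2 at an unadjusted p under 0.05 (against 2.53% of all genes). Ncr1 had 3.14, 5.09 and 2.67 CPM at 5 mg/mL, against 1.15, 1.22 and 0 CPM in controls. The summed level of the list was 493, 422 and 256 CPM at 5 mg/mL, against 409, 263 and 244 CPM in controls, so replicate 3 lay inside the control range, although every exposed lung exceeded every control in 3 of the 27 genes, Trat1, Ncr1 and Cd7, against 4.19% of all genes. Cd7, a surface protein gene of T cells and NK cells, was named after its values were seen. The median was 0.08 for macrophages (19 genes), 0.05 for B cells and plasma cells (12 genes), 0.35 for neutrophils (10 genes) and 0.44 for mast cells (15 genes). Without the libraries of few detected genes these medians became -0.07 for T cells and NK cells, -0.28, -0.74, -0.71 and -0.56 for the lists in the same order. Without 5 mg/mL replicate 2 alone, the neutrophil median was -0.33, and without control replicate 1 alone the mast cell median was 1.65.

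Tissues beside the lung were also checked. The 5 tested skeletal muscle genes all had a lower mean at 5 mg/mL, with a median of -1.41 (-0.90 without 5 mg/mL replicate 2), but their summed level was only 6.78, 3.40 and 9.25 CPM, against 6.76, 18.6 and 18.8 CPM in controls. This was the second list whose library means did not overlap, although control replicate 1 had almost the same sum as exposed replicate 1. Of 10 heart muscle genes tested, 3 had a higher mean and 4 a lower mean, with summed levels of 84.1, 60.8 and 69.4 CPM at 5 mg/mL against 43.2, 64.4 and 105 CPM in controls. The defining markers Myh6, Myh7, Nppa, Myl7, Myl2 and Myl3 were at 0 in all 6 libraries. Globin genes took 5.29%, 8.23% and 5.32% of reads at 5 mg/mL, against 7.34%, 5.44% and 3.5% in controls, with exposed replicate 2 the highest.

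Interferon-stimulated genes had a median of 0.22 over 24 genes, 17 of them higher. Psmb9, a subunit of the immunoproteasome, had 189, 128 and 119 CPM at 5 mg/mL, against 82.8, 77.2 and 80.4 CPM in controls, a log2 fold change of 0.86 (SE 0.37). Every exposed lung lay above the controls in Psmb9, which was 1 of 24 genes higher without overlap, against 4.19% of all genes. The median of the list was -0.13 without the libraries of few detected genes and -0.12 without 5 mg/mL replicate 1. Cell cycle genes had a median of 0.00 over 30 genes, 15 of them higher. Mcm3 and Mcm5, both subunits of the replicative helicase, were the 2 of 30 that were lower without overlap, against 4.13% of all genes. Mcm3 had 11.7, 10.8 and 9.79 CPM at 5 mg/mL against 18.5, 15.6 and 16.2 CPM in controls. Mcm5 had few reads, 11 at 5 mg/mL and 42 in controls. Its log2 fold change of -1.82 was -0.80 without the libraries of few detected genes. Matrix genes had a median of -0.15 over 26 genes, or -0.52 without 5 mg/mL replicate 3 and 0.12 without the libraries of few detected genes. The membrane-bound metalloproteinase gene Mmp14 had 43.0, 43.2 and 117 CPM against 132, 117 and 142 CPM, with exposed replicate 3 at the level of the lowest control. The lists of p53 targets, core clock genes, complement genes and MHC class II genes had medians between -0.03 and 0.05 with all libraries. Other settings took them as far as -0.30 for p53 targets (weighted voom), 0.18 for clock genes and -0.20 for complement genes (both without the libraries of few detected genes) and -0.21 for MHC class II genes (without 5 mg/mL replicate 1).

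**Figure D4:**
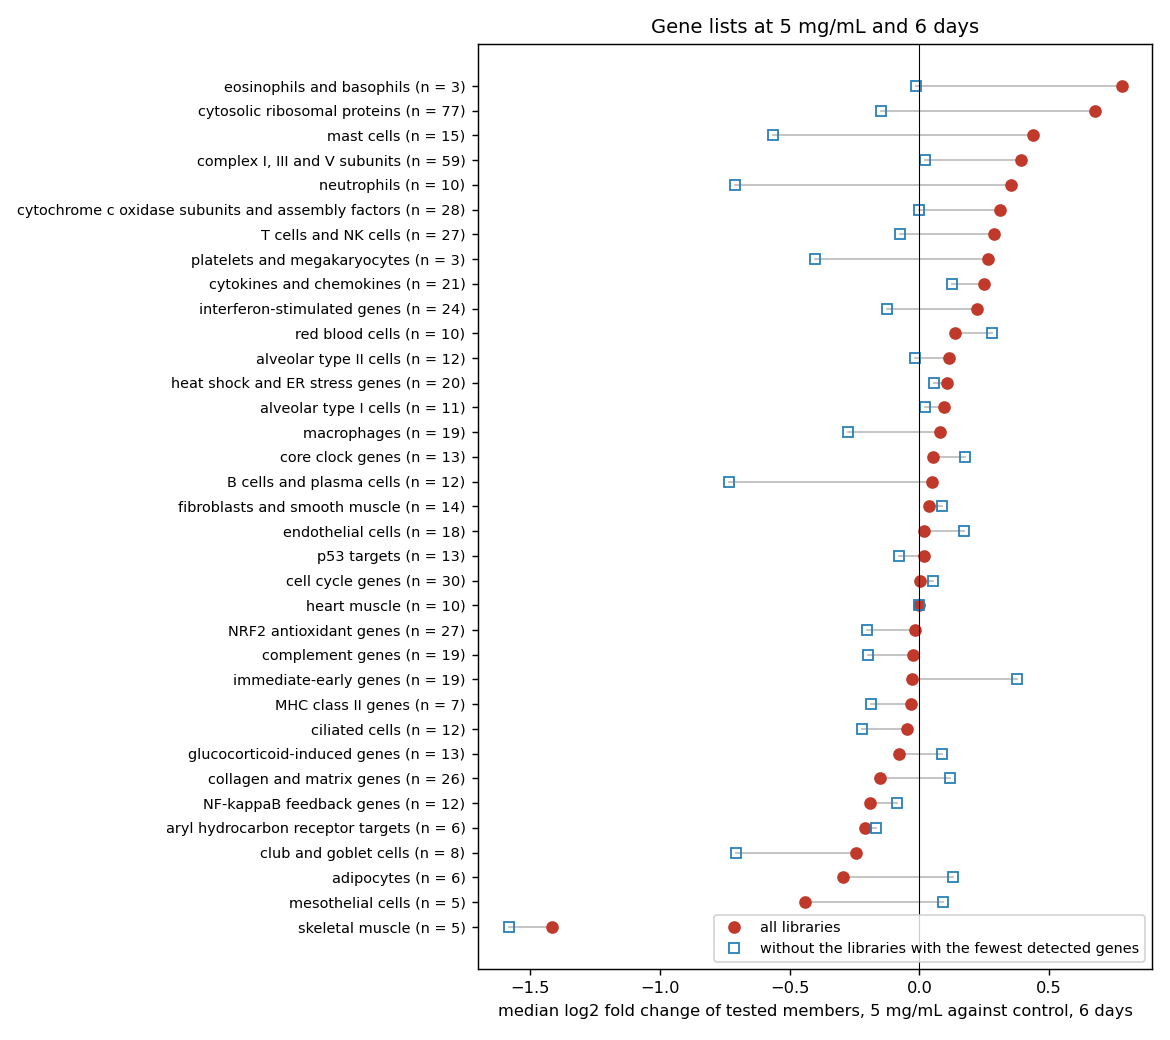
Median log2 fold change of the tested members of 35 gene lists at 5 mg/mL against control, 6 days, with all libraries (filled circles) and with the 8 of fewest detected genes left out (open squares), and with the number of members tested in brackets. The ribosomal protein list lies at 0.68 with all libraries and at -0.15 without those 8, the mast cell list at 0.44 and at -0.56, whereas the NF-kappaB feedback and skeletal muscle lists stay below 0.

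The lungs at 10 and 20 mg/mL of day 6 were set against the same 3 controls, so values of the 3 strengths share those controls and their likeness is no separate evidence. At an unadjusted p under 0.05 by edgeR, 308 genes (2.7%) differed at 10 mg/mL and 463 (4.05%) at 20 mg/mL, with 0 past the adjusted threshold at either. For Cmc1 the log2 fold change was 1.65 at 5 mg/mL, 1.34 at 10 mg/mL, then 1.42 at 20 mg/mL, each with an SE of 0.35. For Ost4 it was 1.43, 0.34 and 0.45, and for Ephx2 -2.34, -0.28 and 0.80. The difference between 5 mg/mL and the mean of the higher strengths does not use the controls. By edgeR, 0 genes (0.0%) passed the adjusted threshold in it and 448 (3.92%) had an unadjusted p under 0.05. Without 5 mg/mL replicate 3 these counts were 3, namely St3gal6, Tcf20 and Zbtb16, and 1420. DESeq2 called 3 genes in it, Cebpd, Ephx2 and Ckmt2, with log2 values of 1.32, -2.62 and -19.07. Ckmt2, a mitochondrial creatine kinase gene, was named after its values were seen, and its log2 value is too large to be read as a measured ratio.

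Cebpd, a transcription factor gene of inflammation and of glucocorticoid responses, had the smallest adjusted p of that difference, 0.0799 by edgeR. Its level was 313, 139 and 234 CPM at 5 mg/mL, 119, 84.8 and 125 CPM at 10 mg/mL, 84.5, 59.9 and 84.1 CPM at 20 mg/mL, and 201, 285 and 243 CPM in controls. The 5 mg/mL lungs lay above all 6 lungs of the higher strengths, with a log2 difference of 1.32 (SE 0.23), and overlapped the controls, with a log2 fold change of -0.09 (-0.65 to 0.47). Without 5 mg/mL replicate 2, its lowest exposed value, the difference reached an adjusted p of 0.00681. Next by p were St3gal6 (log2 difference 0.71), Ephx2 (-2.61), Angpt2 (1.05) and Ccdc148 (2.30), each with an adjusted p of 1.0.

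At 12 days of 5 mg/mL, set against its own 3 controls, 0 genes passed the adjusted threshold and 143 (1.25%) had an unadjusted p under 0.05 by edgeR. Of the 289 genes with a higher mean and an unadjusted p under 0.05 at day 6, 169 (58.5%) were also higher at day 12, against 49.8% of all genes. Of the 249 lower genes, 147 (59.0%) were lower at day 12, against 50.2% of all. Genes of both sets are not independent of each other, and 8 genes had an unadjusted p under 0.05 on both days. Over all 11421 genes the log2 fold changes of the days had a Pearson r of -0.0161, a description across genes of separate libraries. Of the 15 higher genes described above, 7 had a higher mean at day 12, and of the 15 lower genes 7 had a lower mean. Cmc1 was at 14.8, 14.8 and 16.9 CPM in 5 mg/mL lungs of day 12, against 13.5, 16.4 and 15.1 CPM in controls of that day. Trat1 was at 0.128, 0.904 and 0.445 CPM, against 0.404, 2.17 and 1.25 CPM. The groups overlapped in both genes at day 12.

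The difference between the effects of the days was tested in the same fit. By edgeR, 0 genes passed the adjusted threshold, with 234 (2.05%) at an unadjusted p under 0.05 and a smallest adjusted p of 1.0. The count at an unadjusted p under 0.05 was 972 without 5 mg/mL replicate 3 of day 6 and 475 without control replicate 1 of day 6. DESeq2 called 2 genes, Trat1 and Elavl2. Elavl2 had 0, 1.96 and 2.85 CPM at 5 mg/mL against 10.7, 9.49 and 5.07 CPM in controls at day 6, and 6.25, 14.8 and 8.75 CPM at 5 mg/mL against 2.43, 2.89 and 3.05 CPM in controls at day 12. Its groups were apart on both days, in opposite directions, and at day 12 each exposed lung exceeded each control. Cdkn2c, Ptgds, a prostaglandin D2 synthase gene, and Ephx2 were also among the genes of smallest p in this difference, with log2 values of -1.25, 2.85 and 3.04 for the day 12 effect minus the day 6 effect. The remaining gene of smallest p, the defensin gene Np4, had no reads in the controls of day 6 and in 1 exposed lung of that day.

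**Figure D5:**
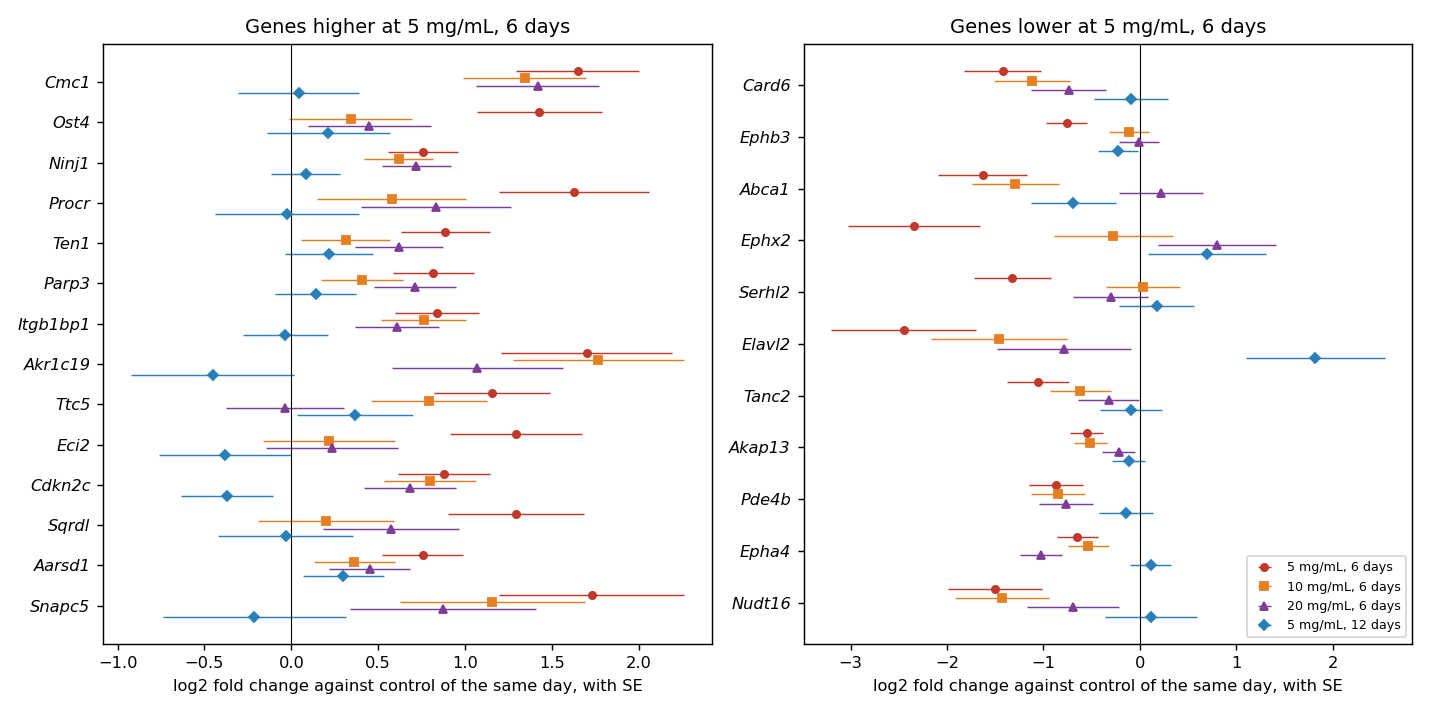
Log2 fold change with its SE for the genes of smallest p at 5 mg/mL and 6 days, leaving out 5 genes with 3 or fewer reads in a group, at 5, 10 and 20 mg/mL of day 6 and at 5 mg/mL of day 12, each against the controls of its own day. Genes were chosen by the 5 mg/mL values of day 6, and the 3 strengths of that day share their controls. Cmc1 lies between 1.34 and 1.65 at the 3 strengths and at 0.04 at day 12, and Elavl2 changes sign between the days.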

How the data were processed

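Lung RNA of 24 rat samples was sequenced, and the authors deposited raw read counts per gene symbol for each sample. Per the labels' protocols, libraries were made from total RNA with a Lexogen QuantSeq 3′ kit and, per the submitters' processing notes, bedtools and Bowtie2 were used with build rn6. Not given in the sources used here are tool versions, the annotation and the strand setting. The deposited counts list 17048 lines for 16881 symbols; for the 149 repeated symbols the line with the highest total was kept, which drops 0.772% of counts. Groups follow the sample titles.

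A quasi-likelihood model with 8 group means was fitted to all 24 libraries with edgeR 4.0.16 in R 4.3.3, after filterByExpr (11421 genes) and TMM scaling (factors 0.804 to 1.12), with 16 residual degrees of freedom. CPM uses the scaled totals. Adjusted p-values are Benjamini-Hochberg over all tested genes. DESeq2 1.42.0, limma 3.58.1, other scalings and filters, fewer libraries and a replicate block were tried. The fit was tested on simulated data. Named genes are the 15 of smallest p in each direction (mean of at least 1 CPM in the higher group, no unnamed gene models), up to 4 members of smallest p from each list (those past an unadjusted p of 0.05), 5 for each difference, and a fixed set of response genes. Members and lists were chosen with earlier results of these data known. Gene overlaps and symbols come from RefSeq on GRCr8, with no coordinates used.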

Additional observations from a re-analysis of the deposited data

How the results depend on the processing

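For 5 mg/mL against control, edgeR called 0 genes as reported, and 0 were called under 19 of 21 alternatives. DESeq2 called 2 and leaving out single libraries gave 0 to 2. The count at an unadjusted p under 0.05, 538, was 2250 by limma voom with sample quality weights, 810 by voom without weights (added after seeing the data), 319 from the 6 libraries alone, 333 from the 12 of day 6, 115 against a 1.5-fold change, 185 without the 8 libraries of few detected genes, and 283 to 1943 without single libraries. Against the higher strengths, 1 gene was called with no filter, 3 by DESeq2, 1 with detected genes as a covariate, and 0 to 3 without single libraries. For the difference between days, DESeq2 called 2. Same-numbered samples deviated together with r of 0.345, -0.185 and 0.371, and exposed replicate 2 correlated best with control replicate 1 (0.255). Exposed replicates 1 and 2 went with control replicate 1, and exposed replicate 3 with control replicates 2 and 3, the division seen in detected genes. That division could hide a pairing, so whether the numbers pair the samples cannot be told from these values. With the replicate block 0 genes were called and 865 had an unadjusted p under 0.05.

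Of 71 named genes, 12 took the other sign under at least 1 of the 19 to 21 alternatives in which each had a value. Zbtb16 turned to -1.53 by weighted voom, -0.33 by plain voom and -1.65 without 5 mg/mL replicate 3. Cebpd turned to 0.0274 with the covariate, 0.17 without 5 mg/mL replicate 2 and 0.04 without control replicate 2. Scgb1a1 turned to 0.0012 with the covariate, and to 0.08, 0.10 and 0.23 without 5 mg/mL replicates 2 and 3 and control replicate 3. Without the 8 libraries, Snapc5 turned to -0.0002, Rpl27 to -0.0277, Rpl9 to -0.0427, Tnf to 1.14, Mmp12 to -1.41, St3gal6 to -0.15 and Ccdc148 to -0.40. Angpt2 turned to -0.0233 without 5 mg/mL replicate 1, Mmp12 to -0.19 without 5 mg/mL replicate 2, Tnf to 0.22 without control replicate 1, and Cyp1a1 to -0.11 without control replicate 3. Without single libraries the log2 values ranged from -0.11 to 0.99 for Cyp1a1, -0.39 to 0.17 for Cebpd, -1.65 to 2.29 for Zbtb16, -0.24 to 0.23 for Scgb1a1, -1.14 to 0.22 for Tnf, -0.19 to 1.41 for Mmp12 and -0.0233 to 0.69 for Angpt2. The causes were not tested. Depth limits the genes of few reads most, such as Alkbh5, Fgfr3 and Trip13. The difference contrasts were not run on the 6 libraries alone, nor the days contrast on the 12.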
